A study of Mus musculus with 3 samples.

Results

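The genes described here encode the nuclear part of the mitochondrial respiratory chain and of the ATP synthase, measured in mouse epidermis after deletion of cFLIP, of TNF or of both. They were chosen by symbol: genes beginning with Nduf (complex I, without the Ndufaf assembly factors), Sdha to Sdhd (complex II), Uqcr (complex III), Cox4 to Cox8 followed by a letter (complex IV) and Atp5 (complex V). The rule found 80 members among 24574 named genes, with 38 in complex I, 4 in complex II, 7 in complex III, 17 in complex IV and 14 in complex V. It used no measured value.

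The series holds 3 microarrays of pooled epidermal RNA, 1 for each genotype. The cFLIP KO mice were cFLIP fl/fl K14CreER tam, in which the keratin 14 promoter drives a tamoxifen-dependent Cre in keratinocytes, and which keep TNF. The cFLIP KO/TNF KO mice carried the same alleles and lacked TNF in all cells (TNF-/-), and the TNF KO mice were TNF-/- with intact cFLIP. All 3 genotypes received tamoxifen on epilated back skin, and skin was taken 72 h after the first application. The age of the mice is not in the labels. The sources used here do not give the Cre transgene for TNF KO mice, so what sets both cFLIP-deficient genotypes off from TNF KO and an action of Cre cannot be told apart. Wild-type epidermis was not analysed here, and the cFLIP KO and TNF KO mice differ in both loci.

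Oxidative phosphorylation takes place in the inner mitochondrial membrane. Complex I (NADH dehydrogenase) and complex II (succinate dehydrogenase) pass electrons to ubiquinone, complex III passes them to cytochrome c, and complex IV (cytochrome c oxidase) passes them to oxygen. Complexes I, III and IV pump protons, and complex V uses the resulting gradient to make ATP. Basal keratinocytes carry many mitochondria, which are cleared as the cells cornify.

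The deposited values are log2 signals, and every difference given here is one of log2 signals, so that 1 equals a 2-fold difference. A single array per genotype gives no replicate error, so differences were not tested, and the words higher, lower, above and below hold for these 3 arrays alone. In pooled tissue RNA, fewer cells of a type and less RNA per cell cannot be told apart. Signals of different genes depend on their probes and were not set against each other.

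The values of the cFLIP KO array were the least spread, with an SD of 1.78 over all named genes, against 2.05 on the cFLIP KO/TNF KO array and 2.06 on the TNF KO array. Cflar, which encodes cFLIP, had 6.29 on the cFLIP KO, 6.53 on the cFLIP KO/TNF KO and 7.0 on the TNF KO array, and Tnf had 5.79, 5.21 and 5.11. No source used here places the probes of these 2 genes within or outside the deleted sequence. The cFLIP KO/TNF KO and TNF KO arrays held exactly equal values for 32 of the 80 members (40.0%), against 52.4% of all named genes, so equal values are named as such and not read as proof of an unchanged level.

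Transcription of nuclear respiratory genes is known to be driven in part by NRF1, by the ETS factor GABP and by the ERR receptors, which share the coactivator PGC-1alpha. RefSeq promoter windows (250 bases before to 50 after the start, build GRCm38.p6) matched 63 members, with 68 windows. The NRF1 letters GCGCNTGCG stood on either strand in 21 of the 68 (30.9%), against 6.31% of all 32851 promoter windows and 8.61% of those of protein-coding genes. The GABP letters CCGGAAG stood in 16 (23.5%), against 8.86% of all windows, the ERR letters TCAAGGTCA in 2 (2.94%), against 0.423%, and the YY1 letters AAGATGGCG in 6 (8.82%), against 1.4%. Of the general promoter motifs, GGGGCGGGG (SP1) stood in 14.7% of the member windows, against 11.4% of all, CCAAT in 39.7%, against 37.4%, and TATAAA in 11.8%, against 13.6%. In the windows of protein-coding genes the shares were 11.6% for GABP, 0.334% for ERR and 1.83% for YY1. There they were 15.4% for SP1, 38.2% for CCAAT and 12.6% for TATAAA. No matches of different motifs overlapped in the member windows. A match is a run of letters and says nothing of binding.

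The windows below are those of Ndufs8 and Ndufb5, the 2 members furthest below TNF KO in cFLIP KO epidermis, and of 1 member each of complexes II to V with NRF1 letters. Capitals mark NRF1 or GABP letters on either strand, and each window reads in the direction of its gene.
Ndufs8 (complex I, chr19:3912725-3913024, minus strand): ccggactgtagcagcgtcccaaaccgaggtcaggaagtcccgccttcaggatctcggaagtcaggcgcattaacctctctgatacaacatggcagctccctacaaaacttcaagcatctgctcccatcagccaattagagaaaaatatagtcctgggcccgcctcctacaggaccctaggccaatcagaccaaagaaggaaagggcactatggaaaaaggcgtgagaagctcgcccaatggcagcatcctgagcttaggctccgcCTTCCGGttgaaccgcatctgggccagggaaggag
Ndufb5 (complex I, chr3:32736813-32737112, plus strand): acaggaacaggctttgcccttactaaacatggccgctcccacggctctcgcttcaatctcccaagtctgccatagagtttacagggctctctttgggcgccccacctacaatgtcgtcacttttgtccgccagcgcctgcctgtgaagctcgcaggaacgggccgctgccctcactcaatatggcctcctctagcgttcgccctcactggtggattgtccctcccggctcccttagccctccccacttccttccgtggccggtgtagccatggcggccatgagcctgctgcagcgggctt
Sdha (complex II, chr13:74350191-74350490, minus strand): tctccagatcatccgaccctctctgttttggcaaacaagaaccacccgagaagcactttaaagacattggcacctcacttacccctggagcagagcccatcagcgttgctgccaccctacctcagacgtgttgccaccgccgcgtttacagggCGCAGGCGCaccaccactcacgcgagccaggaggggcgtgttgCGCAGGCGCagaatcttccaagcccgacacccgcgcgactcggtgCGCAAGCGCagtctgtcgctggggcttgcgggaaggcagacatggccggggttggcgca
Uqcrc1 (complex III, chr9:108936398-108936697, plus strand): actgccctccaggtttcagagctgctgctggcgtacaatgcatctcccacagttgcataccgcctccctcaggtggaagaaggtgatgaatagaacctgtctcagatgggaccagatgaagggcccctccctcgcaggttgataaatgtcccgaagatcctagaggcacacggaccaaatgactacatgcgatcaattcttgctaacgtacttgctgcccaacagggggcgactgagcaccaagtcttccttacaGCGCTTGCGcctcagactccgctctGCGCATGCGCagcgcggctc
Cox6a1 (complex IV, chr5:115348909-115349208, minus strand): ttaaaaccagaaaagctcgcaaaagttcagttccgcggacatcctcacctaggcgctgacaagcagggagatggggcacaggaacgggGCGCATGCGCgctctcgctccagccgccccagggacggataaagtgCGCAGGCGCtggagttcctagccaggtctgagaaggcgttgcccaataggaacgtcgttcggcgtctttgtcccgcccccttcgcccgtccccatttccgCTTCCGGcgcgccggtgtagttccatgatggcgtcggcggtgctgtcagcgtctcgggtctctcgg
Atp5g3 (complex V, chr2:73911277-73911576, minus strand): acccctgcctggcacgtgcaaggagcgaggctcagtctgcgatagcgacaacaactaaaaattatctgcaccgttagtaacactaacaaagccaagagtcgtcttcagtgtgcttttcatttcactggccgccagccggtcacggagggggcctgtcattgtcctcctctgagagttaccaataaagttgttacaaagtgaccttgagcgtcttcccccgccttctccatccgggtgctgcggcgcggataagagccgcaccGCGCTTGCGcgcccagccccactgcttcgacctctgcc
The Sdha window held NRF1 letters at 3 places, those of Uqcrc1 and Cox6a1 at 2 places each and that of Atp5g3 at 1. Ndufb5 had no match to either motif and Ndufs8 had 1 to GABP. Since the windows of complexes II to V were picked for NRF1 letters, they cannot be set against those of Ndufs8 and Ndufb5. Among all member windows, NRF1 letters stood in 2 of the 7 from members past 2-fold below TNF KO and in 19 of the 61 others.

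As deposited, respiratory chain genes lay lower on the cFLIP KO array than on the TNF KO array, most of all those of complex I. The median difference of the 80 members was -0.31, beside 0.00 over all named genes, with 54 members below 0, 18 above and 8 equal. Of the 80, 9 were at least 2-fold lower (11.25%) and 0 at least 2-fold higher, while 9.2% of all named genes were at least 2-fold lower and 3.87% at least 2-fold higher. The share of members that were 2-fold lower was thus near that of all genes. The median difference of the members did not stay below 0 under other scalings: it was -0.27 with each array scaled to Actb, 0.02 with each array scaled to 9 reference genes, 0.07 after the trend of the difference on the signal (lowess) was subtracted and 0.03 after quantile normalization was repeated. The 9 reference genes were themselves not level: as deposited they differed by -1.07 to 0.47 between cFLIP KO and TNF KO, with a median of -0.41.

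**Figure D1:**
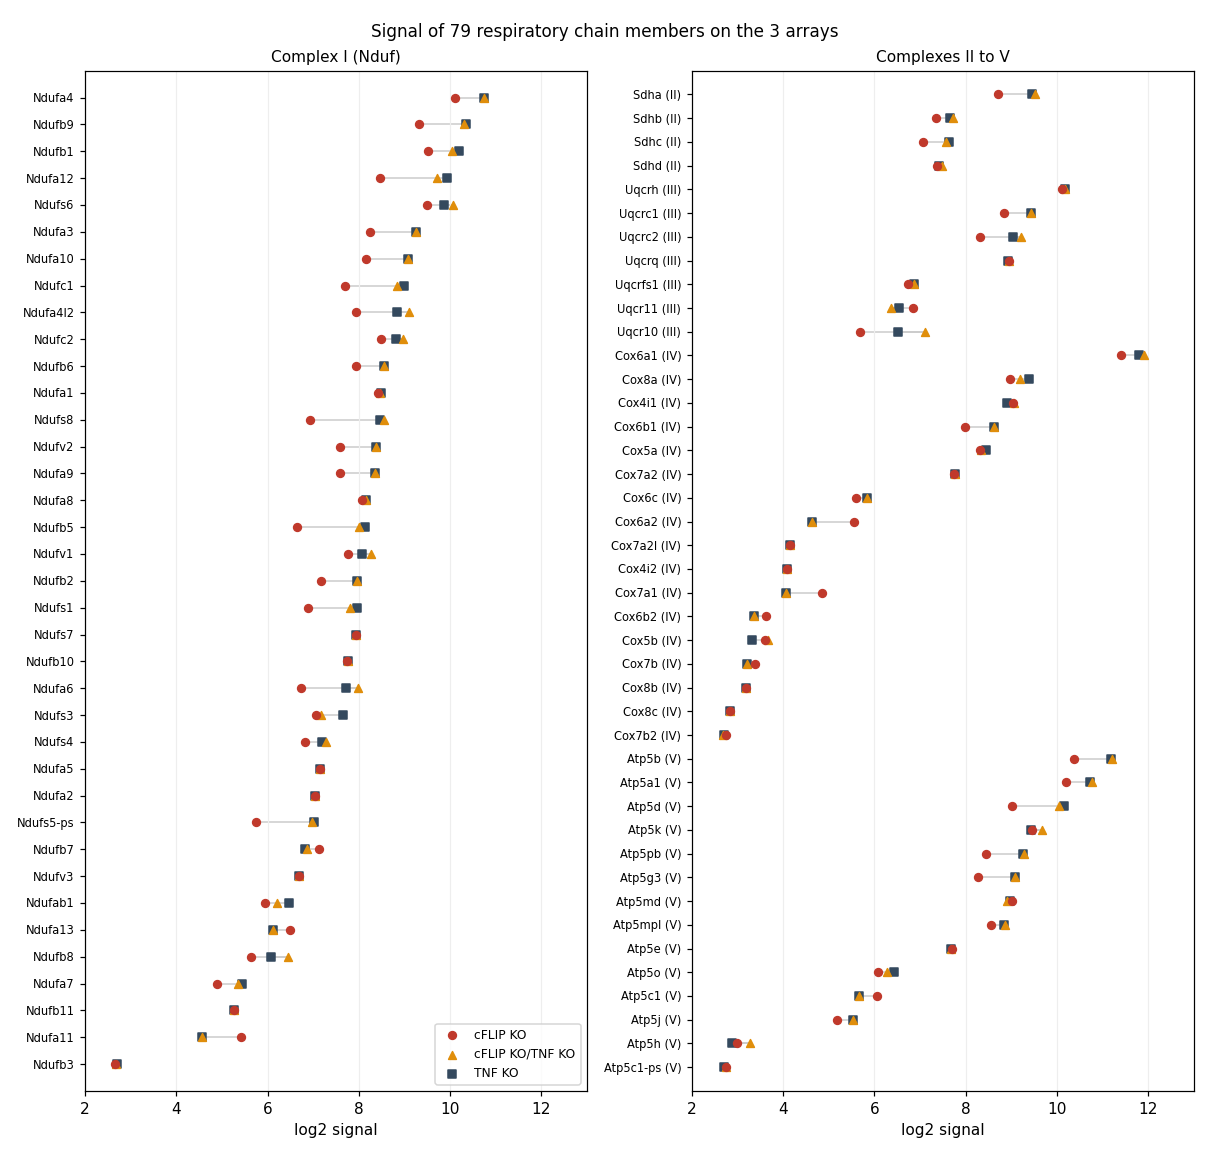
Log2 signal (horizontal axis) of 79 of the 80 members on the cFLIP KO (red circles), cFLIP KO/TNF KO (orange triangles) and TNF KO (dark squares) arrays, 1 value per genotype, with complex I on the left and complexes II to V on the right. The cFLIP KO value was the lowest of the 3 for 54 of the 80 members as deposited, while the other 2 arrays held equal values for 32 members.

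The signal itself moved with this difference. Most members are bright: 39 of the 80 lay in the brightest of 10 equal groups of all named genes by mean signal and 15 in the group below it. In the brightest group, cFLIP KO differed from TNF KO by a median of -0.63 for the members and -0.80 for all genes, and 6 of 39 members (15.4%) were at least 2-fold lower, against 39.2% of all genes of that group. In the group below, the medians were -0.31 for the members and -0.58 for all genes, and 2 of 15 members (13.3%) were at least 2-fold lower, against 30.8% of all genes. The members of these 2 groups thus lay less far below TNF KO than all genes of the same brightness. Members of the next 2 groups lay further below it than all genes did, with medians of -0.42 for 7 members and -0.15 for all genes in the brighter one, and of -0.23 for 5 members and 0.00 for all genes in the dimmer one. After the trend on the signal was subtracted, 0 of the 80 members were at least 2-fold lower or higher, while 4.55% of all named genes were lower and 3.87% higher.

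**Figure D2:**
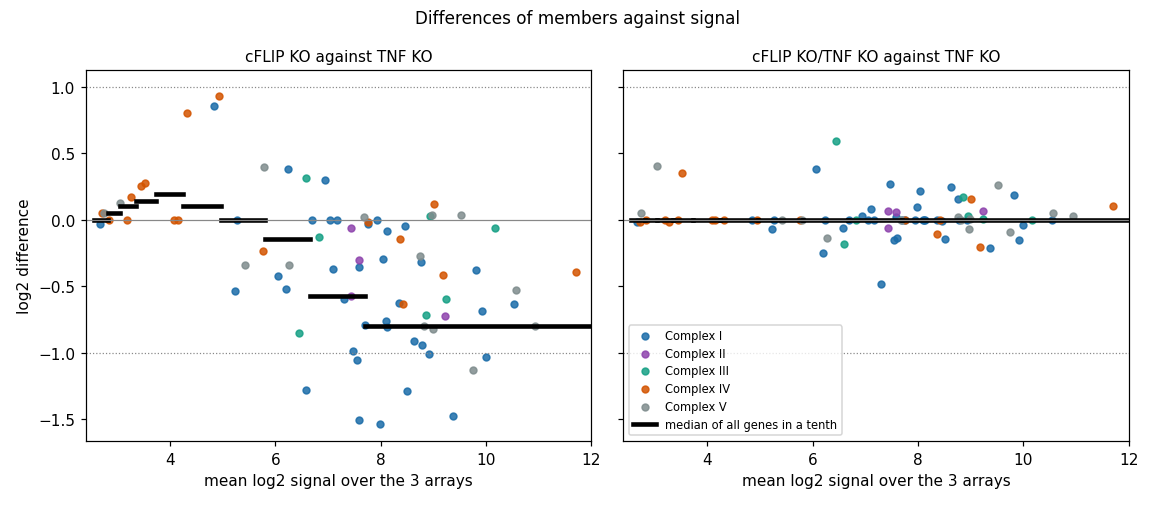
Log2 difference (vertical axis) of each member, coloured by complex, against its mean log2 signal over the 3 arrays, with cFLIP KO set against TNF KO on the left, and cFLIP KO/TNF KO set against it on the right. Black bars give the median of all named genes in each of the 10 groups by signal, which on the left lies at -0.80 in the brightest group, and dotted lines mark 2-fold.

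Complex I, the entry point for electrons from NADH, held 8 of the 9 members that were at least 2-fold lower on the cFLIP KO than on the TNF KO array. Its 38 members had a median difference of -0.53, with 31 below 0, 3 above and 4 equal. At least 2-fold lower were 21.1% of them, against 9.2% of all named genes and 39.2% and 30.8% of all genes in the 2 brightest groups, and after the trend was subtracted 0 of the 38 were. The median stayed below 0 under each other scaling but moved close to it, with -0.49 for Actb, -0.19 for the reference genes, -0.05 after repeated quantile normalization and -0.04 after the trend was subtracted. The 42 members of complexes II to V had a median of -0.06, with 1 of 42 (2.38%) at least 2-fold lower. The difference between complex I and the other complexes was not tested, since genes are not replicates of a genotype.

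**Figure D3:**
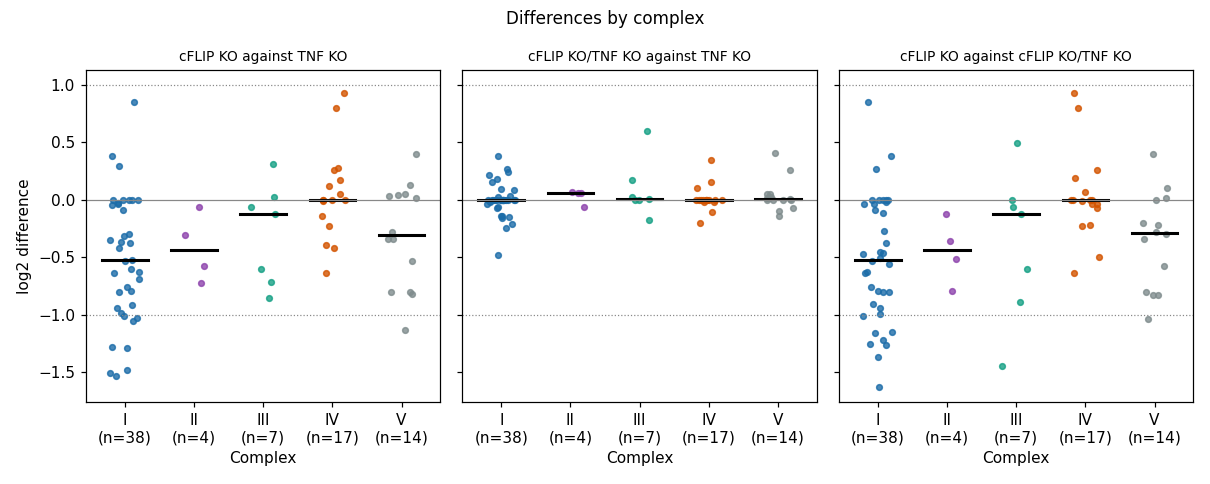
Log2 difference (vertical axis) of each member as a point, by complex, for the 3 comparisons of arrays, with black bars at the median of each complex as deposited and dotted lines at 2-fold. Complex I lies lowest on both panels that hold cFLIP KO, with medians of -0.53 and -0.52 that stood at -0.04 and -0.01 after the trend on signal was subtracted (the second at 0.04 with Actb), and all complexes lie near 0 in the middle panel as deposited, but near -0.5 with Actb.

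The nuclear-encoded core subunits of complex I include those that carry the flavin and the iron-sulphur clusters. Ndufs8, an iron-sulphur subunit of the quinone module, had a log2 signal of 6.93 in cFLIP KO, 8.56 in cFLIP KO/TNF KO and 8.46 in TNF KO epidermis. It was 2.90-fold lower on the cFLIP KO than on the TNF KO array (-1.54) and 3.09-fold lower than on the cFLIP KO/TNF KO array (-1.63). Ndufs8 was thus low on the cFLIP KO array alone, and its difference from TNF KO was the furthest below 0 of all 80 members. Ndufs1, the largest iron-sulphur subunit, had 6.90, 7.80 and 7.95 and was 2.08-fold lower on the cFLIP KO than on the TNF KO array (-1.06). Other core members differed less: Ndufv2 of the NADH module by -0.81, Ndufs3 by -0.60 and Ndufv1, which binds NADH and the flavin, by -0.30, while Ndufs7 held 7.94 on all 3 arrays.

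The accessory subunits of complex I surround the core and are needed for its assembly and stability. Ndufb5, of the membrane arm, had a log2 signal of 6.63 in cFLIP KO, 8.0 in cFLIP KO/TNF KO and 8.14 in TNF KO epidermis, and was 2.84-fold lower on the cFLIP KO than on the TNF KO array (-1.51). Ndufa12, of the peripheral arm, had 8.46, 9.72 and 9.94 and was 2.79-fold lower (-1.48). Both were low on the cFLIP KO array, with a gap of more than 1 on the log2 scale to each of the other arrays and a gap of 0.14 and 0.21 between those. Ndufc1, a small subunit of the membrane arm, had 7.69, 8.84 and 8.98 (-1.29, 2.44-fold lower). Ndufb9 had 9.32, 10.32 and 10.35 (-1.03, 2.05-fold lower), and Ndufa3 had 8.24, 9.26 and 9.26 (-1.01, 2.02-fold lower). Ndufa6, with 6.73, 7.99 and 7.72, lay just outside the threshold against TNF KO (-0.99) and was 2.39-fold lower than on the cFLIP KO/TNF KO array (-1.26).

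One of the members counted with complex I is a transcribed pseudogene. Ndufs5-ps had a log2 signal of 5.75 in cFLIP KO, 6.96 in cFLIP KO/TNF KO and 7.02 in TNF KO epidermis, and was 2.43-fold lower on the cFLIP KO than on the TNF KO array (-1.28). Its probes may also read its parent Ndufs5, which was not analysed here, so the value cannot be assigned to either. Ndufa4, which is now placed with complex IV, had 10.11, 10.75 and 10.75 (-0.63). Its paralog Ndufa4l2, known as a hypoxia-induced gene, had 7.94, 9.09 and 8.85, and was 2.23-fold lower on the cFLIP KO than on the cFLIP KO/TNF KO array (-1.16).

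Not every subunit of complex I was low on the cFLIP KO array. Ndufa11, a subunit of the membrane arm, had 5.41 in cFLIP KO, against 4.55 in both cFLIP KO/TNF KO and TNF KO epidermis, a difference of 0.85 that lay between 0.74 and 1.19 under the other scalings. Ndufa13 (0.38) and Ndufb7 (0.30) also lay above TNF KO. Ndufa5, Ndufb11 and Ndufv3, like the core subunit Ndufs7, held equal values on all 3 arrays, and Ndufb3 gave a dim signal of 2.66, 2.67 and 2.69, near the lowest values of the arrays.

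Complex II, which is also an enzyme of the citric acid cycle, has 4 subunits, and all 4 had their lowest signal on the cFLIP KO array as deposited. Sdha, the flavoprotein that oxidises succinate, had a log2 signal of 8.72 in cFLIP KO, 9.51 in cFLIP KO/TNF KO and 9.45 in TNF KO epidermis. Sdhb, the iron-sulphur subunit, had 7.36, 7.72 and 7.66. The membrane anchors followed with 7.06, 7.58 and 7.64 for Sdhc and 7.37, 7.49 and 7.43 for Sdhd. The differences between cFLIP KO and TNF KO ran over a range of -0.73 for Sdha to -0.06 for Sdhd, none of them at 2-fold. The median of complex II, -0.44 as deposited, turned to 0.16 after the trend was subtracted and to 0.23 after repeated quantile normalization.

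In complex III, the bc1 complex, the core subunits Uqcrc1 and Uqcrc2 were lower on the cFLIP KO than on the TNF KO array as deposited (-0.60 and -0.72), with 8.84, 9.44 and 9.44 for Uqcrc1 and 8.32, 9.21 and 9.04 for Uqcrc2 on the cFLIP KO, cFLIP KO/TNF KO and TNF KO arrays. After the trend was subtracted these 2 differences stood at 0.18 and 0.04. Uqcrfs1, the Rieske iron-sulphur protein, differed by -0.13, the hinge protein Uqcrh by -0.07 and the small subunit Uqcrq by 0.03. The catalytic partner cytochrome c1 (Cyc1), which the symbol rule leaves out, had 7.39 in cFLIP KO and 7.55 in each of the other genotypes.

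A pair of small subunits of this complex went opposite ways as deposited. Uqcr10 had a log2 signal of 5.67 in cFLIP KO, 7.12 in cFLIP KO/TNF KO and 6.53 in TNF KO epidermis, so that it was low in cFLIP KO (-0.85) and high in cFLIP KO/TNF KO (0.59) relative to TNF KO. Against cFLIP KO/TNF KO it differed in cFLIP KO by -1.44, and this lay between -1.20 and -0.88 under the other scalings. Uqcr11 had 6.86, 6.36 and 6.54 and was the highest member of the complex in cFLIP KO relative to TNF KO (0.31). The median of complex III was -0.13 as deposited and lay above 0 after the trend was subtracted (0.25), with the reference genes (0.21) and after repeated quantile normalization (0.39).

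Complex IV showed no common shift as deposited: the median of its 17 members was 0.00 between cFLIP KO and TNF KO, with 6 below 0, 7 above and 4 equal, and 0.33 with the reference genes. The widely expressed subunits Cox6b1, with 7.99 in cFLIP KO, 8.62 in cFLIP KO/TNF KO and 8.62 in TNF KO (-0.64), Cox8a, with 8.97, 9.19 and 9.39 (-0.42), and Cox6a1, with 11.41, 11.91 and 11.80 (-0.39), were the lowest as deposited. Cox4i1, the largest nuclear subunit, had 9.04, 9.07 and 8.91, and Cox7a2 had 7.75, 7.76 and 7.76. Both thus differed by less than 0.2 between any 2 arrays as deposited. Cox5b, Cox7b and the ATP synthase subunit Atp5h, which every respiring cell needs, gave dim signals, with a highest value of 3.67 for Cox5b, 3.38 for Cox7b and 3.27 for Atp5h, so that their differences carry little weight.

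Several subunits of complex IV have isoforms made in few tissues. Cox6a2, the heart and skeletal muscle isoform of Cox6a1, had a log2 signal of 5.56 in cFLIP KO, against 4.62 in both cFLIP KO/TNF KO and TNF KO epidermis. Its difference of 0.93 was the highest of the 80 members, just under 2-fold, and lay between 0.83 and 1.27 under the other scalings. Cox7a1, the muscle isoform of Cox7a2, had 4.86 in cFLIP KO, against 4.06 in both other genotypes, a difference of 0.80 that lay between 0.58 and 1.13. The 2 muscle isoforms were thus high on the array on which most bright members were low. The lung isoform Cox4i2, the muscle and brown fat isoform Cox8b and the testis isoform Cox8c held 4.08, 3.19 and 2.84 on all 3 arrays. The testis isoforms Cox6b2 and Cox7b2 differed by 0.25 and 0.05 between cFLIP KO and TNF KO.

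**Figure D4:**
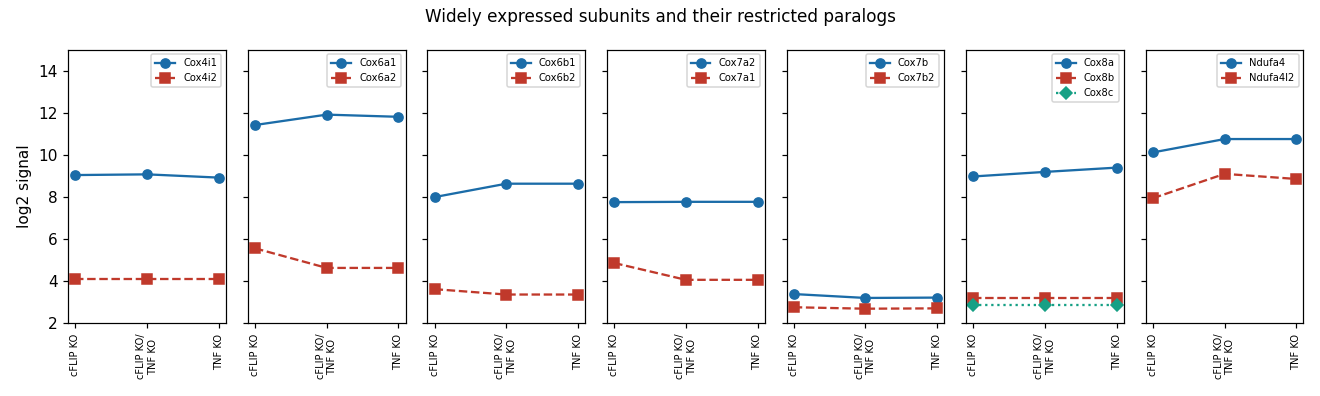
Log2 signal (vertical axis) of widely expressed subunits (blue) and their paralogs of restricted expression (red, and green for Cox8c) on the 3 arrays, with lines joining the values of 1 gene. Cox6a2 and Cox7a1 lie higher on the cFLIP KO array than on the other 2, while their partner Cox7a2 lies near 7.76 on all 3 and Cox6a1 is lower on the cFLIP KO array as deposited (0.49 higher than TNF KO after the trend on signal was subtracted).

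Skeletal muscle lies beneath the skin, and 10 of its markers were read beside these isoforms. Against TNF KO, 3 of the 10 stood at least 2-fold higher in cFLIP KO (Myh1 with 1.35, Acta1 with 1.23 and Myh2 with 1.15) and 1 at least 2-fold lower (Myh4 with -1.41), and myoglobin (Mb) differed by 0.77. The summed linear signal of the 10 was 1319 in cFLIP KO, 1175 in cFLIP KO/TNF KO and 932 in TNF KO epidermis. The part of muscle RNA in the Cox6a2 and Cox7a1 values was not tested. Of 4 brown adipocyte markers, 0 differed by 2-fold as deposited, and Ucp1, the uncoupling protein of brown fat, held 3.40 on all 3 arrays.

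Complex V consists of the catalytic F1 part and a membrane part with the rotor ring and the peripheral stalk. Atp5d, the delta subunit of the F1 stalk, had a log2 signal of 9.02 in cFLIP KO, 10.06 in cFLIP KO/TNF KO and 10.15 in TNF KO epidermis, and was 2.19-fold lower on the cFLIP KO than on the TNF KO array (-1.13). It was the only one of the 14 members of complex V at 2-fold as deposited. The catalytic beta subunit Atp5b had 10.39, 11.22 and 11.19 (-0.80) and the alpha subunit Atp5a1 had 10.20, 10.77 and 10.72 (-0.53). The gamma subunit Atp5c1 went the other way as deposited, with 6.05 in cFLIP KO, against 5.66 in both other genotypes (0.40), and the epsilon subunit Atp5e differed by 0.02.

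Of the membrane part, Atp5pb of the peripheral stalk (-0.82) and Atp5g3 of the rotor ring (-0.80) lay lowest in cFLIP KO relative to TNF KO. Atp5g3 had 8.28, 9.08 and 9.08 on the cFLIP KO, cFLIP KO/TNF KO and TNF KO arrays, and its paralogs Atp5g1 and Atp5g2 were not analysed here. Atp5o and Atp5j, also of the stalk, both differed by -0.34, and the small subunits Atp5k and Atp5md by 0.04 and 0.03. The pseudogene Atp5c1-ps was dim, with at most 2.75. The median of complex V was -0.31 as deposited and 0.04 after the trend was subtracted, and with the reference genes 0.03.

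Whether loss of TNF besides cFLIP left the respiratory chain near the TNF KO level was read from the second comparison. Between cFLIP KO/TNF KO and TNF KO epidermis, the median difference of the 80 members was 0.00 as deposited and -0.52 with Actb, which was itself 0.52 higher in cFLIP KO/TNF KO. As deposited, 0 members were 2-fold or more above and 0 were 2-fold or more below, while 0.635% of all named genes were higher and 0.22% lower. The members ran over a range of -0.48 to 0.59. The highest were Uqcr10 (0.59), Atp5h (0.40), Ndufb8 (0.38) and Cox5b (0.35), and the lowest was the core subunit Ndufs3 (-0.48), with 7.06 in cFLIP KO, 7.17 in cFLIP KO/TNF KO and 7.66 in TNF KO epidermis. Ndufs3 was thus low on both arrays of cFLIP-deficient epidermis as deposited, and it was the only member with a signal over 0.3 lower in cFLIP KO/TNF KO than in TNF KO in the values as deposited.

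The third comparison set the 2 cFLIP-deficient genotypes against each other, with cFLIP KO on top. It shares arrays with the other comparisons, so the agreement between them is no further evidence. The median of the 80 members was -0.28 as deposited and lay above 0 with Actb (0.28), with the reference genes (0.11), after the trend was subtracted (0.05) and after repeated quantile normalization (0.01). As deposited, 10 members (12.5%) were at least 2-fold lower and 0 at least 2-fold higher, while 8.14% of all named genes were lower and 3.3% higher. These 10 were Ndufs8, Uqcr10, Ndufb5, Ndufa12, Ndufa6, Ndufs5-ps, Ndufa4l2, Ndufc1, Atp5d and Ndufa3, with differences of -1.63 to -1.01. Complex I had a median of -0.52 and 8 of the 10, and after the trend was subtracted 1 member remained at least 2-fold lower (Uqcr10 with -1.18) and 0 higher, against 3.57% and 3.39% of all named genes.

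The 9 members that were 2-fold lower than TNF KO kept their sign under each of the 4 other scalings, but not their size: 7 remained at least 2-fold lower with Actb (8.68% of all named genes were), 3 with the reference genes (5.45%), 1 after repeated quantile normalization (4.84%) and 0 after the trend was subtracted. Of the 10 members 2-fold lower than cFLIP KO/TNF KO, all stayed below 0. With Actb 1 of them remained at 2-fold (2.68% of all named genes were that low), with the reference genes 2 (3.8%), after repeated quantile normalization 2 (4.1%) and after the trend 1. Of the 9 members, 6 matched a promoter window, and 2 of their 7 windows held the NRF1 letters, against 19 of the 61 windows of the other members.

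Factors that build the respiratory complexes were read next. Of 49 assembly factors measured, 4 were at least 2-fold lower on the cFLIP KO than on the TNF KO array and 0 higher. This share of 8.16% was near the 9.2% of all named genes, and the median of the list was -0.02 (0.31 with the reference genes and 0.01 with Actb). Cox20, which helps to mature a catalytic subunit of complex IV, had a log2 signal of 3.79 in cFLIP KO, 6.43 in cFLIP KO/TNF KO and 6.48 in TNF KO epidermis, a difference of -2.69. Sco2, a copper chaperone of complex IV, had 3.30, 4.83 and 5.28 (-1.98). Acad9, an assembly factor of complex I, had 7.31, 8.68 and 9.02 (-1.71), and Coa3 of complex IV had 6.15, 7.47 and 7.47 (-1.32). Of 20 genes of cytochrome c and ubiquinone synthesis, 3 were at least 2-fold lower and 0 higher as deposited (2 lower with the reference genes). The 3 were Coq2, which joins the ring and the tail of ubiquinone (-2.48), Etfdh, which feeds ubiquinone from fatty acid oxidation (-1.34), and Hccs, which attaches haem to cytochrome c (-1.26).

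The pathways that supply the chain with electrons lay lower on the cFLIP KO than on the TNF KO array as deposited, and fewer of their genes stood past 2-fold after the trend was subtracted. In the citric acid cycle, 8 of 15 genes (53.3%) were at least 2-fold lower and 0 higher, against 9.2% of all named genes and 39.2% of those in the brightest group. The number at least 2-fold lower was 6 with Actb, 3 with the reference genes, 1 after the trend and 1 after repeated quantile normalization. The list had a median of -1.02 that stayed below 0 under the other scalings (-0.98 with Actb, -0.69 with the reference genes, -0.29 after repeated quantile normalization and -0.22 after the trend). Sucla2, a subunit of succinyl-CoA ligase, had 6.83 in cFLIP KO, 8.46 in cFLIP KO/TNF KO and 8.64 in TNF KO epidermis (-1.81). Ogdh of the 2-oxoglutarate dehydrogenase differed by -1.62, Idh3a by -1.55, Idh2 by -1.27 and citrate synthase (Cs) by -1.03. In fatty acid oxidation, 7 of 15 genes (46.7%) were at least 2-fold lower and 0 higher, but 5 with the reference genes, 3 after the trend and 3 after repeated quantile normalization, with a median of -0.85 that also stayed below 0 under the other scalings (at the most -0.23). Hadhb of the trifunctional protein differed by -2.22, Cpt1a, which starts the import of fatty acids, by -1.98, and Echs1 by -1.5.

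Pyruvate entry was less uniform. Of 11 genes of the pyruvate dehydrogenase list, 3 were at least 2-fold lower and 0 higher on the cFLIP KO than on the TNF KO array, with Pdk3, an inhibitory kinase of the enzyme, at -2.50, the catalytic subunit Pdha1 at -1.27 and the pyruvate carrier subunit Mpc2 at -1.03. The share of 27.3% stood beside 9.2% of all named genes. Of all genes with a mean signal of 5.81 to 6.66, 15.1% were at least 2-fold lower, and 30.8% of those of 6.66 to 7.70. The median signals of the list were 5.32 on the cFLIP KO and 7.02 on the TNF KO array. The median of this list was -0.26, and with the reference genes 0.08, where 1 gene was at least 2-fold lower, as after the trend. Of 16 glycolysis genes, 1 (6.25%) was at least 2-fold lower (Pfkfb3 with -1.20) and 0 higher, with a median of -0.13 that stood at 0.37 after the trend was subtracted. Against TNF KO, 0 members of any of these 6 lists were 2-fold different in cFLIP KO/TNF KO epidermis, and their medians were 0.00 as deposited. Of all named genes, only 0.635% were at least 2-fold higher and 0.22% lower there. Scaling to Actb shifts all these differences by -0.52, and 1 assembly factor was then at least 2-fold lower, beside 1.83% of all named genes.

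**Figure D5:**
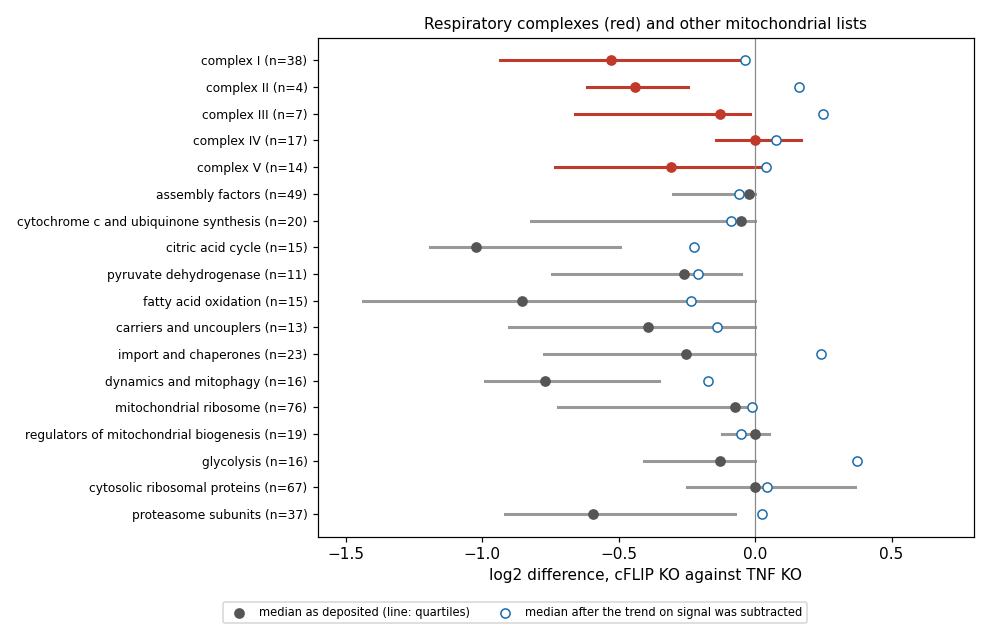
Median log2 difference (horizontal axis) between cFLIP KO and TNF KO for the 5 complexes (red) and for other lists (grey), as deposited (filled, with a line over the middle 50% of the genes) and after the trend on signal was subtracted (open). The citric acid cycle lies lowest as deposited at -1.02, while after the trend all lists lie between -0.23 and 0.37, with complexes II to V above 0.

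Regulators of mitochondrial biogenesis were read beside the subunits. Of 19 measured, 0 differed by 2-fold in any comparison as deposited. Between cFLIP KO and TNF KO, 9.2% of all named genes were at least 2-fold lower and 3.87% higher. The median of the 19 between these 2 arrays was 0.00 (0.33 with the reference genes and -0.05 after the trend, where that of the subunits was 0.07). Ppargc1a, the gene of PGC-1alpha, had a dim log2 signal of 2.89 in cFLIP KO, 2.87 in cFLIP KO/TNF KO and 2.89 in TNF KO epidermis. Nrf1, the factor of the promoter letters, had 6.12, 6.13 and 6.14, and Esrra had 6.73, 6.56 and 6.56. Gabpa, the DNA-binding subunit of GABP, had 7.06, 7.66 and 7.55, and Tfam, which maintains mitochondrial DNA, had 4.13, 4.67 and 4.67. Gabpa and Tfam were thus low on the cFLIP KO array as deposited, each by less than 2-fold. All genes of a mean signal of 6.66 to 7.70, which holds Gabpa, had a median of -0.58 between cFLIP KO and TNF KO. Those of 4.25 to 4.97, which holds the mean of Tfam, had a median of 0.10. Ppargc1b, a relative of Ppargc1a, had 4.34, 4.12 and 4.24. The mitochondrially encoded subunits were not analysed here.

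Markers of the cell types in skin also differed in signal between the arrays. All 9 keratinocyte markers lay below TNF KO in cFLIP KO epidermis as deposited, 4 of them at least 2-fold (Flg with -2.64, Ivl with -2.30, Lor with -1.85 and Krt1 with -1.49), with a median of -0.70 that stood at 0.22 after the trend was subtracted. The 4 of 9 (44.4%) stood beside 9.2% of all named genes and 39.2% of those in the brightest group, whose median was -0.80. Their summed linear signal was 29077 in cFLIP KO, 48264 in cFLIP KO/TNF KO and 52613 in TNF KO epidermis. The neutrophil list held 8 markers, of which 3 (37.5%) were at least 2-fold higher on the cFLIP KO than on the TNF KO array, beside 3.87% of all named genes. Of the 8, 7 lay above TNF KO and 1 was equal, with a median of 0.70. Their summed signal was 4217 in cFLIP KO, 2227 in cFLIP KO/TNF KO and 1509 in TNF KO. The summed signal of the keratinocyte list was thus lowest and that of the neutrophil list highest on the cFLIP KO array as deposited. A sum weighs the brightest markers most. The 5 macrophage markers measured summed to 1322, 1552 and 723. The 6 T cell markers summed to 141, 274 and 282, but their median in cFLIP KO relative to TNF KO was 0.00, with 3 equal, 1 above and 2 below. Only 1 of the 6 was at least 2-fold lower (-1.96). The 6 fibroblast markers summed to 7664, 8183 and 6651. On the cFLIP KO/TNF KO array, all 6 fibroblast markers lay above their TNF KO signal as deposited, and their median in cFLIP KO relative to TNF KO was -0.08 as deposited and 0.71 after the trend. White adipocyte markers summed to 193, 1285 and 371, with 4 of 6 at least 2-fold higher in cFLIP KO/TNF KO than in TNF KO, beside 0.635% of all named genes. The part of these cell types in the signals of the respiratory chain was not tested.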

How the data were processed

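Pooled epidermal RNA of 3 genotypes was hybridised to Affymetrix Mouse Gene 2.0 ST arrays, 1 array per genotype. The authors deposited log2 values, made by background correction and quantile normalization (RMA in the submitters' processing notes, version unstated) using a custom chip definition (version 22) that groups probes by ENTREZ gene. As deposited, the arrays nevertheless did not share 1 distribution. Over all named genes the SD was 1.78 for cFLIP KO, 2.05 for cFLIP KO/TNF KO and 2.06 for TNF KO. The medians were 4.43, 4.16 and 4.14. The reason was not tested. The log base was taken from the range of the values (2.48 to 13.82). The methods give 3 to 6 animals and 3 to 5 days of tamoxifen, and the labels give 4 animals and 3 days. One sample title differs in wording from the genotype label, which was followed. Precision is limited by the number of arrays.

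Symbols came from the platform annotation for 24015 rows and from RefSeq for 559. The 399 rows without a symbol were left out. Of the 80 members, 79 matched by platform symbol and 1 by RefSeq. One member is not reported here by name and is counted in the totals alone. RefSeq holds 107 symbols of the rule, and 27 of them (10 protein-coding) were not analysed here. The members, gene lists and alternatives were chosen with earlier results of these data known.

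Differences of log2 values were taken for 3 pairs of arrays, and members past 2-fold were counted beside all named genes. The paper's analysis of variance needs replicates and was not run. Named were members past 2-fold, the highest and lowest of each complex, isoform pairs, all Sdh genes, up to 6 genes past 2-fold per list and 6 regulators. Other genes were named after their values were seen. Alternatives were thresholds of 1.5-fold and 3-fold, scaling to Actb or to the mean of 9 measured of 10 reference genes, subtracting a lowess trend (0.3 of the genes, 3 iterations), a second quantile normalization, the mean, and narrower member sets. Only the differences and the lowess subtraction were tested on simulated data. The software was Python (3.11.15), statsmodels (0.14.6), pandas (2.3.3), matplotlib (3.10.9) and numpy (2.4.6).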

Additional observations from a re-analysis of the deposited data

Results flagged for a closer look

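Uqcr10, a small subunit of complex III, moved in opposite directions in the 2 cFLIP-deficient genotypes. Relative to TNF KO, its log2 signal differed by -0.85 in cFLIP KO and by 0.59 in cFLIP KO/TNF KO epidermis. It was the only member more than 1.5-fold from TNF KO on both arrays with opposite signs. The difference between the 2 contrasts was not tested, since each rests on 1 array per genotype, and both share the TNF KO array. With each array scaled to Actb, the values were -0.81 and 0.07.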

How the results depend on the processing

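No paired analysis was possible because each genotype had 1 array, and for the same reason none could be left out. Scaling to the reference genes moved the median of all named genes by 0.33 in cFLIP KO against TNF KO, by -0.05 for cFLIP KO/TNF KO relative to TNF KO and by 0.39 in cFLIP KO against cFLIP KO/TNF KO, scaling to Actb by 0.04, -0.52 and 0.56, and repeated quantile normalization by at most 0.03. Subtracting the trend on signal takes out by construction what genes of equal brightness share. Narrower member sets (protein-coding structural subunits, platform symbols, genes above the median signal) moved no count or median beyond the limits set (a factor of 1.5 or 0.2 on the log2 scale).

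In cFLIP KO against TNF KO, members at least 2-fold lower numbered 9 as deposited, 3 with the reference genes, 1 after repeated quantile normalization and 0 after the trend. At 1.5-fold 27 were lower (15.6% of all named genes were) and at 3-fold 0 (3.45%). Members higher numbered 0, but 3 with the reference genes (8.87% of all named genes were) and 3 at 1.5-fold (10.7%). The member median of -0.31 became 0.023 with the reference genes, 0.073 after the trend and 0.0295 after quantile normalization. In the same order it became -0.19, -0.036 and -0.051 for complex I, -0.11, 0.16 and 0.23 for complex II, 0.21, 0.25 and 0.39 for complex III and 0.026, 0.039 and -0.0039 for complex V, and for complex IV 0.33 with the reference genes.

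In cFLIP KO/TNF KO against TNF KO, 1 member was at least 1.5-fold higher (1.49% of all named genes were) and, with Actb, 1 at least 2-fold lower (1.83%). The Actb medians were -0.52 for the members, -0.52, -0.46, -0.52, -0.52 and -0.52 for complexes I to V, as the shift of Actb sets.

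In cFLIP KO against cFLIP KO/TNF KO, members at least 2-fold lower numbered 10 as deposited, 2 with the reference genes, 1 with Actb, 1 after the trend, 2 after quantile normalization, 26 at 1.5-fold (15.4% of all named genes were) and 1 at 3-fold. Members higher numbered 0, but 3 with the reference genes, 4 with Actb, 1 after quantile normalization and 3 at 1.5-fold. In the same order, 9.4%, 14.2%, 3.83% and 10% of all named genes were higher. At least 3-fold lower were 2.54% of all named genes. The member median of -0.28 turned to 0.11 with the reference genes and 0.28 with Actb, and moved to 0.053 after the trend and 0.0073 after quantile normalization. In this order the medians were -0.13, 0.040, -0.010 and -0.024 for complex I, -0.054, 0.12, 0.11 and 0.20 for complex II, 0.26, 0.43, 0.25 and 0.36 for complex III and 0.10, 0.27, -0.0022 and -0.083 for complex V. Complex IV stood at 0.39 with the reference genes and 0.56 with Actb, and the mean of complex III was -0.38. Beyond the shift that a scaling applies, the cause was not tested.

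The differences of the 12 single members past 2-fold kept their sign under the 4 other scalings in each comparison in which they passed it. Values near the bottom of the arrays, as for Ndufb3 and Cox7b, limit what can be seen.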

Other observations

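Genes that shape and clear mitochondria lay lower on the cFLIP KO than on the TNF KO array as deposited. Of 16 genes of mitochondrial dynamics and mitophagy, 4 were at least 2-fold lower and 0 higher, beside 9.2% and 3.87% of all named genes, with a median of -0.77 that stayed below 0 under the 4 other scalings (at the most -0.15). The number at least 2-fold lower was 3 with the reference genes, 1 after the trend on signal was subtracted and 1 after repeated quantile normalization. The fusion protein Mfn1 had a log2 signal of 6.65 in cFLIP KO, 7.99 in cFLIP KO/TNF KO and 8.20 in TNF KO epidermis, a difference of -1.55. The mitophagy receptors Bnip3l and Fundc1 differed by -1.49 and -1.16, and the fission protein Dnm1l by -1.36. Between cFLIP KO/TNF KO and TNF KO, 0 of the 16 differed by 2-fold as deposited, while 0.635% of all named genes were higher and 0.22% lower.

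Of 13 carriers and uncouplers, 3 were at least 2-fold lower on the cFLIP KO than on the TNF KO array, the outer membrane channels Vdac3 (-1.13) and Vdac1 (-1.10) and the oxoglutarate carrier Slc25a11 (-1.08), with a list median of -0.39 that stayed below 0 under the other scalings. This share of 23.1% stood beside 9.2% of all named genes and 39.2% and 30.8% of those in the 2 brightest groups. With the reference genes, after the trend or after repeated quantile normalization, 0 of the 13 were 2-fold lower. Of 23 genes of protein import, 3 were at least 2-fold lower, the processing peptidase subunits Pmpcb (-1.28) and Pmpca (-1.23) and the receptor Tomm22 (-1.24), with a median of -0.25 that stood at 0.24 after the trend, where 1 was 2-fold lower, and 0 were with the reference genes. Of 76 genes of the mitochondrial ribosome, 4 (5.26%) were at least 2-fold lower and 0 higher, with a median of -0.07 (0.26 with the reference genes). This share was below the 9.2% of all named genes. Outside the mitochondrion, 7 of 37 proteasome subunits (18.9%) were at least 2-fold lower and 0 higher, a share again below those of the 2 brightest groups. Their median was -0.59 and stood at 0.03 after the trend, where 1 was 2-fold lower. Of 67 cytosolic ribosomal proteins, 6 (8.96%) were at least 2-fold higher and 4 (5.97%) lower, beside 3.87% and 9.2% of all named genes. Their median was 0.00 (0.33 with the reference genes).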
